A study of Mus musculus with 2 samples.

Results

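The signals of 10 genes of neutrophils and activated myeloid cells were examined in the skin of newborn mice with and without *Pnpla1*, a gene of the patatin-like phospholipase family expressed in the outer epidermis. The genes were *Ngp*, *Mmp8*, *Retnlg*, *Csf3r*, *Ly6g*, *Trem1*, *Clec4d*, *Clec4e*, *Fpr1* and *Fpr2*, taken by their symbol in the deposited scanner output, and each had 1 probe, so they make up 10 of 39429 probes and 10 of 30133 genes. Skin RNA of 6 newborn *Pnpla1*+/+ animals made up the control pool and that of 6 newborn *Pnpla1*-/- animals the mutant pool, all C57BL/6N and taken at postnatal day 0. From each pool 200 ng of total RNA was labelled with Cy3 and hybridised to 1 Agilent mouse array. The *Pnpla1* allele was of the knockout-first type, built in C57BL/6N embryonic stem cells, and a flippase step left it without LacZ and Neo. Homozygotes are described as null. Mutant and control pups are described as littermates born to heterozygous parents. Which part of the gene the final allele lacks is not given in the sources used here. The allele was in the germ line, so immune cells carried it as well as keratinocytes. With 1 array per genotype there was no replicate and no test, the spread among the 6 animals of a pool was not measured, and the number of arrays limits the precision. Fewer or more cells of a type and less or more RNA per cell cannot be told apart in RNA of whole tissue.

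The tissue label was checked first. The labels give skin, whereas the deposited design text also speaks of epidermis. The keratinocyte genes *Krt5* (processed intensity as deposited, 220487 in the control and 210699 in the mutant pool) and *Krt10* (277989 and 262540) were bright on both arrays, and so was the dermal collagen gene *Col1a1* (101801 and 93319), so that RNA of both layers was present. The *Pnpla1* probe (chr17:29026908-29026967, mm9) gave 579 in the control and 114 in the mutant pool, a log2 difference of -2.07 after each array was divided by its 75th percentile (2108.4 and 1734.1). It stayed well above background in the mutant pool. Since the structure of the final allele is not given, this lower signal is a limited check of the labels. From quantitative PCR and immunohistochemistry, the authors report that *Pnpla1* mRNA and its protein were absent from mutant skin.

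Neutrophils are short-lived granulocytes that leave the bone marrow under the control of granulocyte colony-stimulating factor (G-CSF), follow chemokines and formylated peptides into injured or infected tissue, and release proteins stored in granules. Myeloid C-type lectins and TREM receptors on neutrophils, monocytes and macrophages pass signals through adaptor proteins with immunoreceptor tyrosine-based activation motifs (ITAMs) and amplify inflammation. Few neutrophils reside in undisturbed skin.

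Of the 10 genes, 7 were at least 2-fold higher in the mutant pool, 3 differed by less than 2-fold and none was 2-fold lower. Among all 22374 genes with a value, 6.7% passed 2-fold upwards and 3.04% downwards. The same 7 genes were at least 4-fold higher, as were 1.85% of all genes, and 5 were at least 8-fold higher, as were 0.791% of all genes. These higher counts depended on the processing: under normexp background correction, and also with centring on spike-in probes, 6 genes were at least 4-fold and 2 (*Mmp8* and *Retnlg*) at least 8-fold higher, and without scaling 4 were at least 8-fold higher. The median log2 difference was 2.85 for the 10 genes and 0.0026 for all genes. Every probe of the 10 was well above background on both arrays, and none was saturated or marked as an outlier. Of 153 negative control spots on the control array, 2 exceeded the lowest signal called well above background there (23.9). Their median was 5.81 and the highest gave 73.9, above the control signals of *Ngp*, *Clec4e*, *Mmp8* and *Fpr2*. Folds are ratios of intensities divided by the array's 75th percentile. Repeated spots gave a technical SD of a log2 difference of 0.23 for probes with a mean intensity under 100, of 0.09 from 100 to 1000 and of 0.07 from 1000, which covers spots of one hybridisation and not animals.

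**Figure D1:**
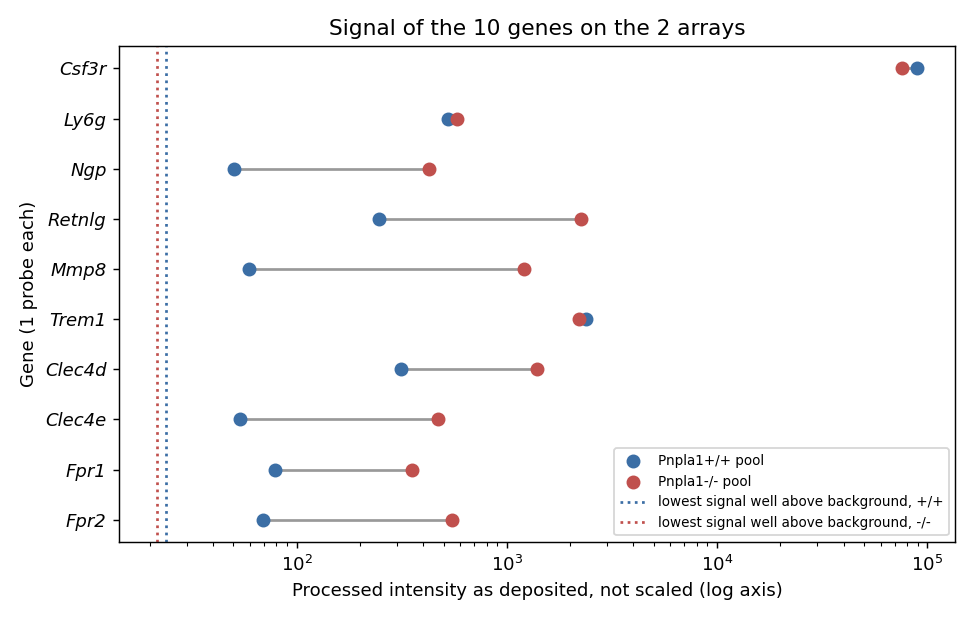
Processed intensity, as deposited and on a log axis, of the probe of each of the 10 genes on the *Pnpla1*+/+ (blue) and *Pnpla1*-/- (red) array, 1 array each, with dotted lines at the lowest signal well above background (23.9 and 21.7). Points of 7 genes lie far apart, with *Mmp8* going from 59.5 to 1209.7, whereas those of *Csf3r*, *Trem1* and *Ly6g* almost coincide.

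The granule genes were low in the control pool and among the largest differences in the mutant pool. *Ngp*, which encodes neutrophilic granule protein, a cystatin-like protein of specific granules, gave 50.5 in the control and 426 in the mutant pool and was 10.3-fold higher (log2 difference 3.36, chr9:110324266-110324814, mm9). *Mmp8*, which encodes neutrophil collagenase, gave 59.5 and 1209.7 and was 24.7-fold higher (log2 difference 4.63, chr9:7568238-7568297). This was the largest difference of the 10 genes, at percentile 99.7 of all genes. The control signals of both lay within a few times of 23.9, the lowest signal called well above background on that array, and with normexp background correction the log2 differences were 2.24 for *Ngp* and 3.69 for *Mmp8*. *Retnlg*, which encodes a secreted resistin-like protein made by myeloid cells, gave 245 and 2248 and was 11.2-fold higher (log2 difference 3.48, chr16:48874468-48874527). Its control signal was 10.2 times the lowest one called well above background.

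Both C-type lectin genes were higher in the mutant pool. They lie next to each other on chromosome 6 and encode the receptors MCL and Mincle, which bind glycolipids of mycobacteria and form a complex that signals through the Fc receptor gamma chain. *Clec4d* (MCL, chr6:123224788-123224847) gave 313 in the control and 1384 in the mutant pool and was 5.39-fold higher (log2 difference 2.43). *Clec4e* (Mincle, chr6:123232878-123232937, minus strand) gave 53.9 and 470.5 and was 10.6-fold higher (log2 difference 3.41). The difference of the second was the larger of the pair, but under normexp background correction the values were 2.34 for *Clec4e* and 2.22 for *Clec4d*, about 1 technical SD apart.

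The formyl peptide receptor genes, whose products guide neutrophils along peptides of bacteria and damaged mitochondria, were also higher. *Fpr1* (chr17:18013609-18013668, minus strand) gave 78.8 and 353 and was 5.45-fold higher (log2 difference 2.45). *Fpr2* (chr17:18030540-18030599), whose product also binds serum amyloid A and annexin peptides, gave 69.1 and 546 and was 9.61-fold higher (log2 difference 3.26). The control signals of *Clec4e*, *Fpr1* and *Fpr2* were 2.25, 3.29 and 2.89 times the lowest one called well above background. In the order of log2 differences *Mmp8* stood alone at the top. *Retnlg*, *Clec4e*, *Ngp* and *Fpr2* followed, each within 2 technical SDs of the next, and *Fpr1* and *Clec4d* came together below them. Under normexp background correction *Mmp8* (3.69) and *Retnlg* (3.21) still led, but *Fpr2* (2.51), *Clec4e* (2.34), *Ngp* (2.24) and *Clec4d* (2.22) came next and *Fpr1* (1.79) was the lowest. The order below *Retnlg* thus depends on this setting, which also adds an offset of 50 to every signal.

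**Figure D2:**
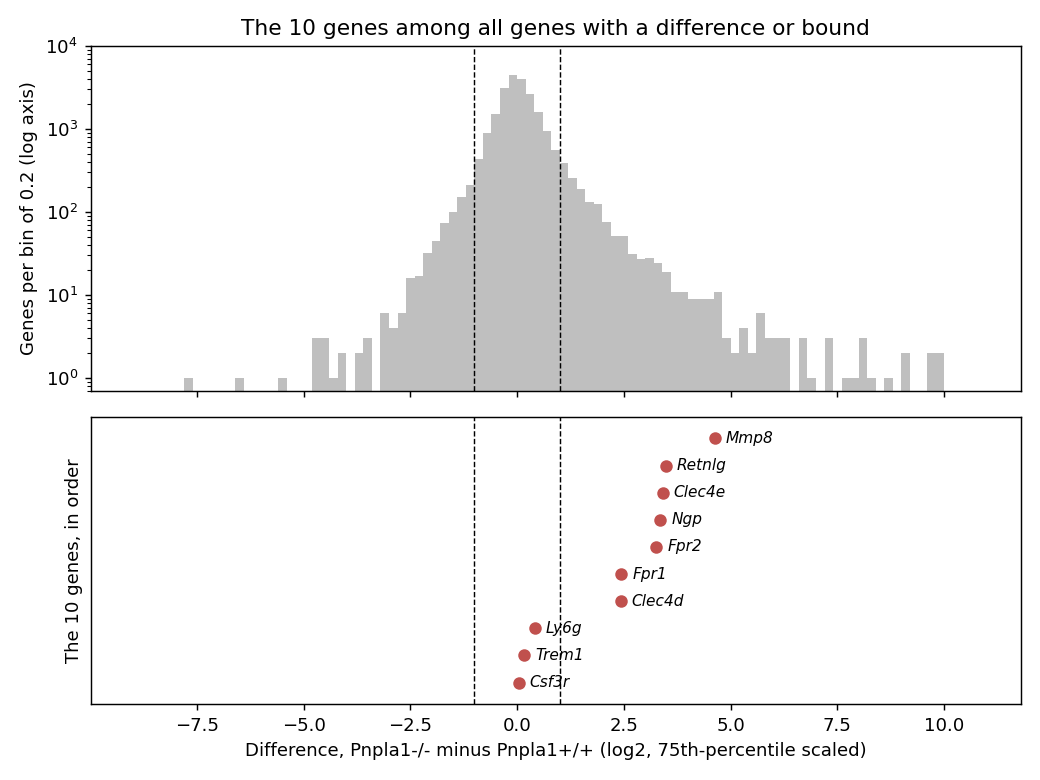
Log2 difference, *Pnpla1*-/- minus *Pnpla1*+/+ after 75th-percentile scaling, of all 22374 genes with a value (upper panel, genes per bin on a log axis) and of the 10 genes (lower panel), with dashed lines at 2-fold. *Csf3r*, *Trem1* and *Ly6g* lie in the bulk of all genes, and the other 7 lie in the upper tail from 2.43 to 4.63.

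The other 3 genes differed by less than 2-fold. *Csf3r*, which encodes the receptor of G-CSF, gave 89901 in the control and 76226 in the mutant pool, a log2 difference of 0.04 (percentile 53.9 of all genes, chr4:125721478-125721537). *Trem1*, which encodes an amplifying receptor of neutrophils and monocytes, gave 2378 and 2203, a log2 difference of 0.17 (percentile 65.3, chr17:48385849-48385908). *Ly6g*, which encodes the surface antigen most used to mark mouse neutrophils, gave 524 and 576, a log2 difference of 0.42 (percentile 80.3, chr15:74989023-74989082). The differences of *Trem1* and *Ly6g* were larger than the technical SD of probes of their brightness, and that of *Csf3r* was smaller.

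The probe sequences set these 3 genes apart from the other 7, a comparison chosen after the values were seen. Each of the 3 probes shared a run of at least 20 identical bases with a probe named for another gene or transcript, as did 7.17% of all 39420 probes compared, whereas none of the probes of the other 7 genes did. The *Csf3r* probe ended in 30 bases that were identical in a probe for an unannotated transcript elsewhere on chromosome 4 (chr4:145718198-145718257), and a stretch of 20 of them was found in an unnamed probe on chromosome 1 (chr1:181625544-181625603). This stretch resembles the B1 family of short interspersed repeats, which occurs in many mouse transcripts. The shared run is in capitals in each of the lines below, which show 30 bases of each probe, 5′ to 3′.
Csf3r probe, last 30 bases: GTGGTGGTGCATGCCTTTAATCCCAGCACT
Unannotated transcript on chromosome 4, last 30 bases: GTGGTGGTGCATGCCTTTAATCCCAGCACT
Csf3r probe with the shorter run: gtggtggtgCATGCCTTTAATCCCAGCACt
Unnamed probe on chromosome 1: gatggcaCATGCCTTTAATCCCAGCACgtg

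The chromosome 4 transcript gave 99869 in the control and 87046 in the mutant pool, a log2 difference of 0.08. The chromosome 1 probe gave 19997 and 15649, a log2 difference of -0.07. Both differences were far under 2-fold, as was that of *Csf3r*.

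The *Trem1* probe held a run of GTT triplets that recurred in the probes of 4 other genes, here shown for 2 of them. The sequences are 30 bases each, with the shared run in capitals.
Trem1 probe, beside Fubp3: TTGTTGTTGTTGTTGTTGTTGTTGTTGTTG
Fubp3 probe (chr2:31472017-31472076): TTGTTGTTGTTGTTGTTGTTGTTGTTGTTG
Trem1 probe, beside Msl1: tGTTGTTGTTGTTGTTGTTGTTGTTGTTgt
Msl1 probe (chr11:98668442-98668501): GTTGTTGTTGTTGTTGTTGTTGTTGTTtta

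*Fubp3*, a regulator of transcription that shared 30 bases, gave 2506 and 2183, a log2 difference of 0.08. *Msl1*, a subunit of a histone acetyltransferase complex that shared 27 bases, gave 3214 and 2628, a log2 difference of -0.01. The transcripts *E430010N07Rik* and *Gm4146*, with shared runs of 32 and 33 bases, had log2 differences of 0.11 and -0.01. All 4 lay in the bulk of the distribution, like *Trem1*.

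The *Ly6g* probe shared 28 bases with a probe for the predicted pseudogene *Gm10238* on the same chromosome (chr15:75066100-75066159). *Ly6g* belongs to a cluster of closely related genes, so that near-identical copies are found beside it. The shared run is again in capitals.
Ly6g probe, last 30 bases: taCTGTTGCAAGGAAGACCTCTGCAATGCA
Gm10238 probe: cCTGTTGCAAGGAAGACCTCTGCAATGCAg

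The pseudogene probe gave 497 in the control and 531 in the mutant pool, a log2 difference of 0.38 beside 0.42 for *Ly6g*. How much of the signal of the *Csf3r*, *Trem1* and *Ly6g* probes came from the named gene was not tested, so their levels and differences are those of the probes. For contrast, the ends of 3 probes that shared no such run are given, 30 bases each.
Mmp8 probe: cagaggtatgggcacatgatagaagagacc
Retnlg probe: taacaaaagcacaatcccaacttggaaacc
Clec4e probe: cgcaagtagaacctgctcagtaggttcaaa

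**Figure D3:**
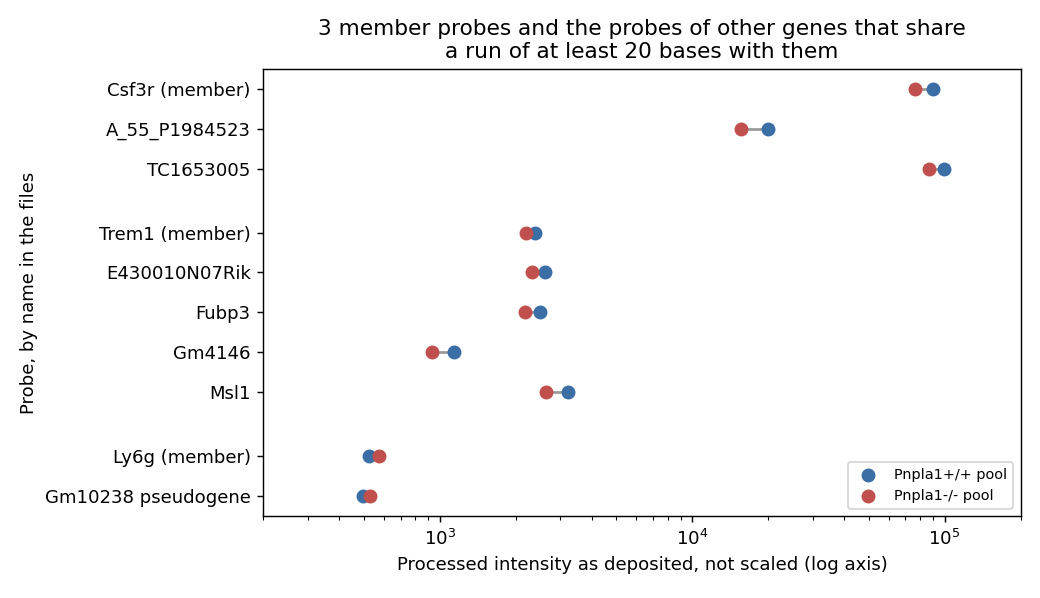
Processed intensity, as deposited and on a log axis, of the *Csf3r*, *Trem1* and *Ly6g* probes and of the probes of other genes that share at least 20 bases with them, on the *Pnpla1*+/+ (blue) and *Pnpla1*-/- (red) array. Within each of the 3 groups every probe shows little difference between the arrays, with log2 differences from -0.07 to 0.42.

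The integrin gene *Itgam*, whose product CD11b marks neutrophils, monocytes and macrophages, had 3 probes, of which 1 shared sequence with other genes. Its brightest probe gave 11846 and 9569, a log2 difference of -0.03, and shared at least 20 bases with 23 probes of other genes. A second *Itgam* probe gave 119 and 701, a log2 difference of 2.84, and the remaining one gave 46.2 and 83.4, a log2 difference of 1.14. The 3 probes of this gene thus disagreed, and the 2 dimmer ones were higher in the mutant pool. Among all probes of the 19 lists described below, that of the mast cell gene *Mcpt4* was the other one with such a run. A small difference also occurred without one, as for *Elane* (log2 difference 0.05), *Ctsg* (-0.06), *Anxa1* (0.03), *C5ar1* (-0.04) and both probes of *Camp* (0.18 each). The share of genes with a small difference that hold such a run was not computed.

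The promoters of the 10 genes were searched for the letters bound by 2 factors of granulocyte development, a search also chosen after the values were seen. C/EBP factors bind TTGCNNAA, and PU.1 binds GAGGAAGT. Both strands of the 250 bases before each RefSeq gene start (GRCm38.p6) were read, and all 10 genes had a promoter there. The C/EBP letters were present for 5 genes (*Clec4e*, *Ly6g*, *Mmp8*, *Ngp* and *Retnlg*) and in 9.56% of all 32851 promoters. The PU.1 letters were present for *Ly6g* and *Mmp8* and in 2.44% of all promoters. The windows below are in the direction of the gene, with the matched letters, or their reverse complement, in capitals.
Ngp, C/EBP (chr9:110419654-110419693): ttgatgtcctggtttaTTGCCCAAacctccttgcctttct
Mmp8, C/EBP (chr9:7558394-7558428): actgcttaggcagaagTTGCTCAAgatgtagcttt
Mmp8, PU.1 (chr9:7558192-7558231): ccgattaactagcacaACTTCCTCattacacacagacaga
Clec4e, C/EBP (chr6:123289914-123289953, minus strand): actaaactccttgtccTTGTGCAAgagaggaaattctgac
Retnlg, C/EBP (chr16:48872358-48872385): agctTTCTGCAAggcattccaggcacct

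In *Mmp8* the C/EBP letters began 19 bases and the PU.1 letters 221 bases before the gene start. The match of *Retnlg* began 246 bases before it, at the far edge of the window. *Ly6g* held both sets of letters, and *Clec4d*, *Fpr1*, *Fpr2*, *Csf3r* and *Trem1* held neither in this window.

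Other proteins of neutrophil granules were higher in 9 of 12 genes and lower in none, with a median log2 difference of 1.82. Among the higher genes, *Mmp9*, *Cd177* and *Bpi* were not well above background in the control pool, so their differences are lower bounds. With such genes left out, 6 were higher and the median was 2.25. *Lcn2*, which encodes the iron-siderophore binding lipocalin of specific granules and is also made by keratinocytes, had the largest difference (528 in the control and 11382 in the mutant pool, log2 difference 4.71). *Pglyrp1*, a ligand of TREM-1, gave 100.2 and 666 (3.02). *Mpo*, the myeloperoxidase of primary granules, gave 32.3 and 541 (4.35), with a control signal close to the lowest one called well above background (23.9). A second *Mpo* probe was not well above background in the control pool (6.49). It gave 71.8 in the mutant pool, a log2 difference of at least 1.87. The primary granule protease gene *Ctsg* had the smallest value of the list (664 and 526, log2 difference -0.06). Genes of the same granule type therefore did not all differ, and *Elane*, a further primary granule protease, was also near 0 (1063 and 906, log2 difference 0.05).

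The ligands that raise, attract or activate neutrophils were higher in 9 of 13 genes and lower in 1, with a median of 3.23. *Csf3*, the gene of G-CSF and thus of the ligand of *Csf3r*, was not well above background in the control pool (5.79) and gave 123 in the mutant pool, at least 6.24-fold higher. Such bounds set the mutant signal against the lowest control signal called well above background, and the medians of lists count these genes at their bound. The counts of higher genes include them too. With them left out, 6 ligand genes were higher (median 4.68), as were 4 receptor genes described below (median 1.02). The counts then were 1 for the transcription factors, 3 for the adaptors and 5 for the relatives, also described below. *Saa3*, an acute phase gene whose serum amyloid A family provides ligands of FPR2, had the largest difference (66.7 and 14713, log2 difference 8.07). *Ppbp*, a platelet chemokine gene, was the lower one (539 and 164, log2 difference -1.43). *Anxa1*, which encodes an FPR ligand abundant in epidermis, hardly differed (87999.7 and 74043, log2 difference 0.03). The genes named here as ligands of formyl peptide receptors thus ran from near 0 to the largest difference of the list.

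Receptor genes listed for neutrophil growth or migration, of which *Cxcr1*, *Cxcr2*, *Csf2ra* and *Csf2rb* bind ligands of the list above, were higher in 6 of 10 genes and lower in none, with a median of 1.40. The 6 include the interleukin-1 receptor gene *Il1r2* (1052 and 2796, log2 difference 1.69), which the list held as well. *Cxcr2*, the main chemokine receptor of neutrophils, was not well above background in the control pool (15.98) and gave 1177 in the mutant pool, at least 59.8-fold higher. *Cxcr4*, which retains neutrophils in bone marrow, had the lowest value (659 and 377, log2 difference -0.52). Transcription factors of the lineage were higher in 2 of 6 genes, with a median of 0.68. *Cebpe*, which drives specific granule genes, was not well above background in the control pool (13.8) and was at least 6.87-fold higher (135). *Gfi1*, a repressor needed for granulocyte formation, had the lowest value (583 and 422, log2 difference -0.18). The receptors therefore spanned a wide range, and most of the transcription factor genes stayed within 2-fold.

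The adaptors and signalling genes that serve the lectins and TREM-1 were higher in 4 of 8 genes, with a median of 0.996, and none was lower. *Fcer1g*, the Fc receptor gamma chain that carries the signal of MCL and Mincle, gave 8489.9 and 13989.8 (log2 difference 1.003). *Tyrobp*, which encodes DAP12, the adaptor of TREM-1, gave 8179 and 11539 (0.78). *Plcg2*, a phospholipase downstream of SYK, had the largest difference of this list (1764 and 4262, 1.56). *Fcer1g* and *Hcst* (log2 difference 1.02), another adaptor gene, lay at the 2-fold limit. The count went down to 1 without scaling, with quantile normalisation and with spike-in centring. It was 2 with median scaling, with the percentile over probes well above background and with normexp, and 6 with cyclic loess.

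Relatives of the lectin, TREM and formyl peptide receptor genes were higher in 7 of 17 genes with a probe, within 2-fold in 6 and below background on both arrays in 4, with a median of 1.29 over those with a value. *Clec4b1* (34.8 and 246, log2 difference 3.10, with a second probe below background on both arrays) and *Clec4n*, which encodes Dectin-2 (909 and 6389, log2 difference 3.09), lie in the same chromosome 6 cluster as *Clec4d* and *Clec4e*. *Fpr3* gave 115 and 180.3 (0.93), and *Treml4* had the smallest value (201 and 169, 0.03). *Clec4a2*, of the same cluster, gave 32.3 and 28.0 (0.08), close to the lowest signals called well above background (23.9 and 21.7). Genes of the NADPH oxidase, which makes the oxidative burst, and of leukocyte adhesion were higher in 8 of 11, with a median of 1.70. *Itgam*, by its brightest probe, had the smallest difference of that list.

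**Figure D4:**
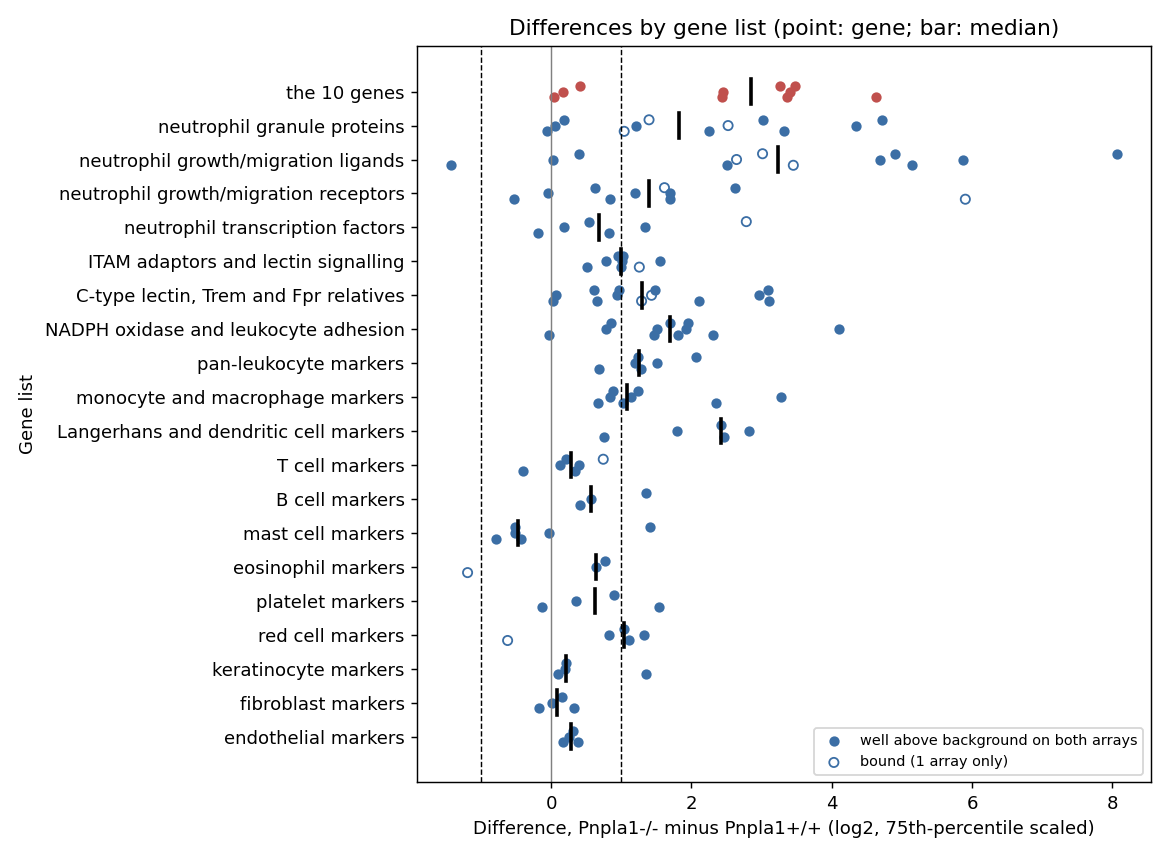
Log2 difference, *Pnpla1*-/- minus *Pnpla1*+/+ after 75th-percentile scaling, of each gene (points, open where only a bound was had) and the median (bars) of the 10 genes (red) and of 19 other lists, with dashed lines at 2-fold. The ligand list has the highest median (3.23) and the mast cell list the lowest (-0.47). With normexp background correction the ligand median was 1.72, below 2.23 for the 10 genes and 2.18 for the Langerhans and dendritic cell list.

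Markers of other cells differed between the pools to different degrees and in both directions, and their part in the results was not tested. Sums of a list are of intensities as deposited, control pool first, and the ratio given with them is mutant over control after each array was scaled. The sums count 1 probe per gene, its brightest, also where that probe was not well above background. No ratio is given for the B cell and eosinophil lists, which rest on dim signals. Pan-leukocyte markers were higher in 5 of 6 genes, with a median of 1.26, and their summed intensity went from 12855 to 29051 (ratio 2.75), with *Coro1a* brightest on both arrays. Monocyte and macrophage markers were higher in 5 of 8 genes with a probe, with a median of 1.08 and a sum of 26883 and 39836 (ratio 1.80), *Csf1r* being the brightest. *Ccr2*, the receptor of inflammatory monocytes, had the largest difference among them (52.5 and 417, log2 difference 3.27) and *Csf1r*, expressed by resident macrophages, the smallest (14484 and 18988, 0.67). Several of the 10 genes are also expressed by monocytes, among them *Clec4d*, *Clec4e*, *Trem1* and the formyl peptide receptor genes.

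Langerhans and dendritic cell markers were higher in 4 of 6 genes, with a median of 2.43 and a sum of 4474 and 19757 (ratio 5.37), *H2-Ab1* being the brightest. *Cd207*, the defining gene of Langerhans cells, was below the limit of signals well above background on both arrays. T cell markers were within 2-fold in 5 of 6 genes, *Cd8a* had only a bound (at least 1.67-fold higher), and the list had a median of 0.28 and a sum of 3854 and 3861 (ratio 1.22), *Cd4* being the brightest. B cell markers were higher in 1 of 4, with a median of 0.57 and a sum of 442 and 755, *Cd79b* being the brightest and *Ms4a1* below that limit on both.

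Mast cell markers were higher in 1 of 6 and within 2-fold in the other 5, with a median of -0.47 and a sum of 119528 and 69198 (ratio 0.704), *Cpa3* being the brightest. Eosinophil markers were lower in 1 of 4 and within 2-fold in 2, with a median of 0.64 and a sum of 149 and 146, *Epx* being the brightest in the control and *Siglecf* in the mutant pool, and *Prg2* was below that limit on both. Platelet markers were higher in 1 of 4, with a median of 0.62 and a sum of 40708 and 30839 (ratio 0.921), *Pf4* being the brightest. Among these granulocyte and platelet lists, none had a median past 2-fold.

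Red cell markers, which report blood in the tissue, were higher in 3 of 5, with a median of 1.04 and a sum of 154256 and 242280 (ratio 1.91), a globin gene being brightest on both arrays. Keratinocyte markers were higher in 1 of 4 (*Krt14*, log2 difference 1.35), with a median of 0.21 and a sum of 813497 and 816644 (ratio 1.22), *Krt10* being the brightest. Fibroblast markers were within 2-fold in all 4, with a median of 0.08 and a sum of 534849 and 426927 (ratio 0.971), *Col1a2* being the brightest, and endothelial markers were so too, with a median of 0.28 and a sum of 8426 and 8685 (ratio 1.25), *Kdr* being the brightest. The summed intensity of the 10 genes, 93673 and 85643 (ratio 1.11 after scaling), was mostly that of the *Csf3r* probe.

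The counts of most lists depended on the processing more than that of the 10 genes. Over the 12 alternatives the count of higher genes ran from 6 to 9 for granule proteins and for ligands, from 4 to 6 for receptors, from 1 to 2 for transcription factors, from 1 to 6 for adaptors, from 5 to 8 for the relatives and from 8 to 9 for the oxidase and adhesion genes. It ran from 2 to 5 for the pan-leukocyte and for the monocyte and macrophage markers, from 4 to 5 for the Langerhans and dendritic cell markers and from 0 to 3 for the red cell markers. The 1 higher gene of the B cell, mast cell, platelet and keratinocyte lists fell below 2-fold in at least 1 alternative each. The count stayed at 0 for the T cell, fibroblast and endothelial markers. List medians moved too, from 1.04 to 2.52 for granule proteins and from 1.72 to 4.69 for ligands. Those of receptors ran from 0.81 to 1.40 and those of transcription factors from 0.25 to 0.68.

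Of 12 alternatives in scaling, background correction and summarising, 7 moved a value of the 10 genes by over 0.01, and in each of these the 7 genes stayed at least 2-fold higher. The other 5 could hardly move them, since each gene had 1 unflagged probe above background and the deposited ratios use nearly the same factors. Among the 7, median scaling, no scaling, the percentile over probes well above background and spike-in centring shift every gene by a common amount. These shifts were small beside the values of the 7 genes, so they could hardly bring any of them under 2-fold. The lowest values were 2.24 for *Ngp*, 2.34 for *Clec4e*, 3.69 for *Mmp8*, 1.79 for *Fpr1* and 2.51 for *Fpr2*, all under normexp background correction, and 1.998 for *Clec4d* and 3.05 for *Retnlg* with centring on spike-in probes. Centring on the spike-in probes moved the median of all genes to -0.43 and gave *Csf3r*, *Trem1* and *Ly6g* values of -0.39, -0.26 and -0.01. They lay above that median as they did before, since a common shift keeps such an order. The sign of these 3 differences hence depends on the scaling.

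**Figure D5:**
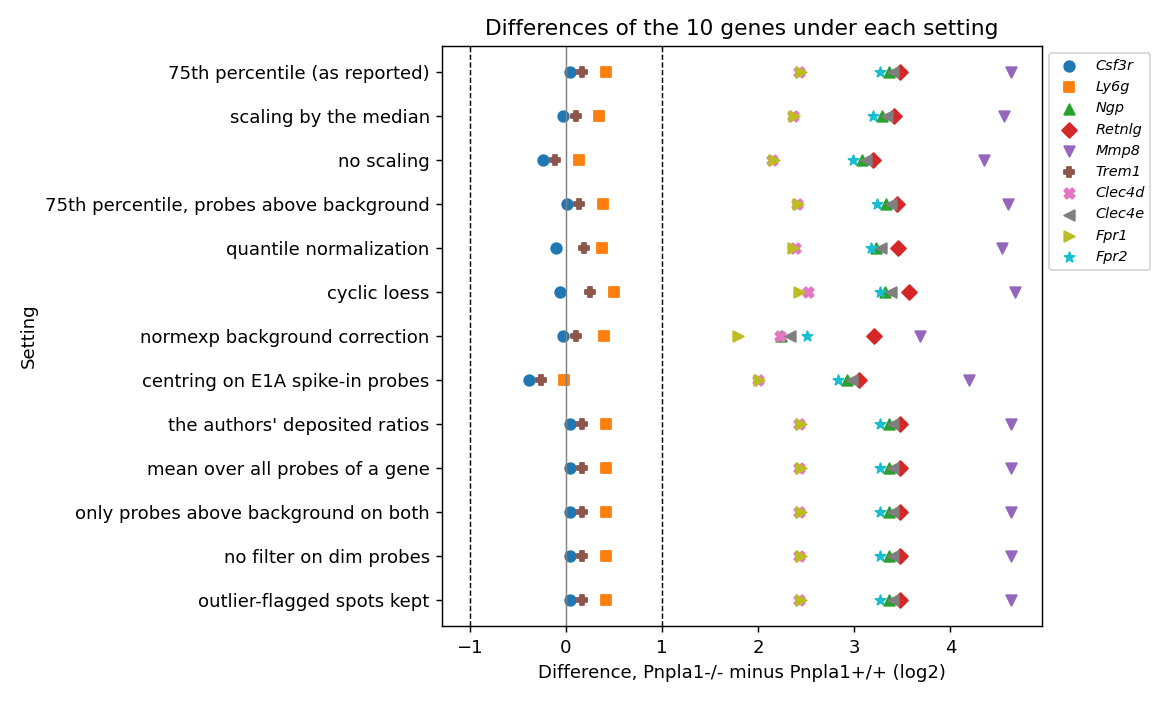
Log2 difference, *Pnpla1*-/- minus *Pnpla1*+/+, of each of the 10 genes (symbols) with the scaling reported and under 12 alternatives, with dashed lines at 2-fold. The 7 genes that were higher lie right of the upper line in every setting, 5 of which could hardly move them, and *Csf3r*, *Trem1* and *Ly6g* lie between the lines.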

How the data were processed

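Total RNA of P0 mouse skin, pooled from 6 animals per genotype, was hybridised by the authors to 1-colour Agilent 4x44K v2 mouse arrays, 1 per genotype, and read with Feature Extraction 11.5.1.1. The authors deposited for each spot a linear processed intensity after background subtraction, with flags for spots not well above background, saturated or outlying. A second deposited table held ratios, in which all 43020 intensities of an array had been divided by 1 factor (2109.2 on the control and 1734.1 on the mutant array). Detrending and dye steps before this are those of the scanner software. A dim signal depends most on the subtraction.

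Processed intensities without control spots were divided by their 75th percentile on each array and put on the log2 scale in Python 3.11.15 (numpy 2.4.6, pandas 2.3.3). Outlier-flagged spots (138 for the control and 82 for the mutant array) were dropped, spots of 1 probe were averaged, and a gene was given by its brightest probe. Of 30133 genes, 20680 were well above background on both arrays, 1694 gave a bound, 16 were above it on 1 array but gave no bound, and 7743 were below on both. Of the spots, 71.7% and 73.3% were well above background. Names came from the files, brought up to date through a RefSeq table of GRCm38.p6 (27508 probes by accession, 3544 by symbol, 404 by an older symbol, and 7973 kept their name). Probe coordinates follow the scanner output (mm9), and the exon or UTR of a probe was not analysed here. Promoter sequences are from RefSeq. The technical SD is from 314 probes with at least 8 spots.

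With 1 array per genotype no test was made, and genes were counted at 2-fold. The arrays' places on the slide could not be told apart from genotype. The 10 genes, the 19 other lists and the rule for naming genes (per list its largest and smallest value and the ligands, receptors or adaptors of the 10 genes, up to 4) were chosen with earlier results of these data known. *Mpo*, *Elane*, *Camp*, *C5ar1*, *Il1r2*, *Hcst*, *Clec4a2*, *Clec4n*, *Krt14* and the probes that share sequence were named in part after their values were seen. Alternatives were median scaling, no scaling, the percentile over probes well above background, quantile normalisation, cyclic loess and normexp (offset 50) in limma 3.58.1 (R 4.3.3), the deposited ratios, centring on the 8 E1A spike-in probes, the mean over probes, 2 filters on dim probes, flagged spots kept, and thresholds of 1.5-fold and 3-fold. The computation was tested on simulated data. The values of some genes of these lists are not reported here.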

Additional observations from a re-analysis of the deposited data

How the results depend on the processing

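The count of 7 genes at least 2-fold higher was the same under the 7 alternatives that moved a value of the 10 genes and at 1.5-fold and 3-fold. The other 5 (the deposited ratios, the mean over probes, the 2 filters on dim probes and flagged spots kept) could hardly change it, since each gene had 1 unflagged probe above background. The log2 differences of the 10 genes also left a gap from 0.42 (*Ly6g*) to 2.43 (*Clec4d*). Neither threshold, nor a small shift common to all genes as with median or no scaling, could therefore change the count. The median of the 10 genes was 2.57 without scaling, 2.23 with normexp and 2.42 with spike-in centring. The count of all genes at least 2-fold higher (1499) became 998 without scaling, 960 with normexp, 827 with spike-in centring, 3041 with no filter on dim probes, 3092 at 1.5-fold and 684 at 3-fold. That of all genes at least 2-fold lower (681) became 1424, 321, 2178, about 1.1e3, 2092 and 228 under the same settings. Without scaling 41.2% and with spike-in centring 27.5% of genes past 2-fold were higher, against 68.8% as reported, since these settings moved the median of all genes to -0.28 and -0.43. With quantile normalisation the share was 58.8%. The filter on dim probes moved that median to 0.10 when left out. The dim genes *Ngp*, *Clec4e*, *Mmp8*, *Fpr1* and *Fpr2* had their lowest values under normexp. That setting also adds an offset of 50 to every signal, which draws in the log2 differences of dim probes most. The parts of the offset and of the background step were not separated. No paired analysis was possible because each genotype had 1 array, and for the same reason no array could be left out.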
